A study of Mus musculus with 7 samples.

Results

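Regulators of G-protein signalling (RGS proteins) and the small GTPase Gem were followed in regulatory T cells (Tregs) of mouse skin and of skin-draining lymph nodes (SDLN). The members were the 8 RGS genes Rgs1, Rgs2, Rgs3, Rgs10, Rgs14, Rgs16, Rgs18 and Rgs19 together with Gem, 9 of the 24084 gene symbols in the deposited table. They were chosen by symbol and selected on their skin and SDLN expression levels, so those levels and fold changes are given as a description and not as a test. The series holds 4 libraries of Tregs from telogen skin (the resting phase of the hair cycle) and 3 of Tregs from SDLN, all from mice aged 6 weeks. All animals carried the Foxp3-DTR allele, with the series' design text naming Foxp3-DTR/GFP, which couples the diphtheria toxin receptor and a green fluorescent protein to Foxp3, the transcription factor that defines Tregs. No treatment is given in the labels, which state neither how many animals stand behind a library nor whether libraries came from separate animals, so SDs measure the spread between these libraries.

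RGS proteins speed up the hydrolysis of GTP by the alpha subunits of heterotrimeric G proteins and so shorten signals from G protein-coupled receptors, among them the chemokine receptors that steer lymphocytes. They fall into subfamilies that differ in length, in their partner domains and in the alpha subunits they act on. Gem belongs to the RGK family of small GTPases, which inhibit voltage-gated calcium channels by binding their beta subunits and which also act on the cytoskeleton; Gem was first found in activated T cells, and its name refers to overexpression in skeletal muscle.

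Total gene counts were 11009609 to 13921238 in skin and 13123241 to 14785751 in SDLN libraries, and 3 counts stood for 0.204 to 0.276 CPM (read counts divided by TMM-scaled library sizes and brought to a common size). Genes with a count numbered 9690, 10002, 12639 and 11103 in skin 1 to 4 and 13408 to 13845 in SDLN. The part of this lower detection in low values of a gene in single skin libraries was not tested. Log2 CPM correlated at 0.624 to 0.699 across genes between skin libraries at 0.964 to 0.981 between SDLN libraries and at 0.617 to 0.700 between a skin and an SDLN library, so by this measure skin libraries were no more like each other than like SDLN libraries. For skin 1 the title and source name say skin but a further label says lymph node, and it was kept as skin. It had 0.0920, 119 and 97.9 CPM of Gpr18, S1pr1 and Ccr7, with at most 0.0881, 54.8 and 145 CPM in other skin libraries. SDLN libraries had 195 to 276, 953 to 1053 and 834 to 983 CPM of these genes. SDLN 3 had 3877 counts of the Y-linked gene Ddx3y and 4 of Xist, the RNA of the inactive X chromosome. The other libraries had at most 2 counts of Ddx3y and 4653 to 11758 of Xist. By these genes SDLN 3 was male and the others female, so the SDLN group mixed sexes and the skin group did not. The part of sex in the values was not tested. Treg and T cell markers summed to 8695 to 14895 CPM in skin and 9465 to 10913 CPM in SDLN, but the 9 genes did not move as 1 group. Ctla4 and Ikzf2 rose in skin, at 3820 ± 856 and 2938 ± 745 CPM in skin (SD, n = 4) and 651 ± 132 and 1320 ± 134 CPM in SDLN (SD, n = 3; edgeR adjusted p = 0.00501 for Ctla4 and 0.0385 for Ikzf2). Foxp3 had 107 to 248 CPM in skin and 69.0 to 102 CPM in SDLN. The T cell genes Cd3e, Cd3d and Cd4 averaged 882, 579.8 and 466 CPM in skin and 1848, 1081 and 738 CPM in SDLN. Skin libraries were below SDLN libraries for each, and none passed (edgeR adjusted p = 0.118, 0.179 and 0.246). Cd3g, Il2ra and Cd28 overlapped between the tissues (edgeR adjusted p = 0.260, 0.585 and 0.850). Markers of macrophages and dendritic cells (12 of 13 in the table) summed to 791 CPM in skin 3, 3082 to 3439 CPM in skin 1 and 2 and 12081 CPM in skin 4, against 352 to 562 CPM in SDLN, where Itgax and Cd14 had no count. Most of this sum in each library came from Cd74, H2-Aa, H2-Ab1 and H2-Eb1. Fibroblast markers reached 2000.5 CPM and keratinocyte markers 561 CPM in skin 3, against at most 8.84 and 20.7 CPM in the other skin libraries and at most 0.882 and 2.65 CPM in SDLN. Endothelial markers summed to 16.2 to 70.5 CPM in skin and 388 to 548 CPM in SDLN, all of it in SDLN from Pecam1, since Cdh5, Kdr and Tek had no count there. The lists for B cells, mast cells, platelets, neutrophils, pericytes, skeletal muscle, melanocytes and CD8 T or NK cells stayed at or under 102 CPM in each library. Some of these lists are set beside the members below, and the part of any list in the levels of the members was not tested.

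In skin Tregs the make-up of the RGS transcripts differed from that in SDLN Tregs, while their summed level overlapped. Rgs2 was 20.6-fold and Gem 37.6-fold higher in skin, Rgs10 and Rgs19 lower, and Rgs1, an abundant member in both tissues, was at overlapping levels. Of the 9 members, 8 passed the low-count filter and Rgs18 did not. The edgeR quasi-likelihood fit over 11376 genes called 3 of the 8 at an adjusted p under 0.05, where it called 7.24% of all tested genes: Rgs2 and Gem were called higher (3.28% of all genes) and Rgs10 lower (3.96%). Libraries of the tissues did not overlap for Rgs2 and Gem, higher in skin, nor for Rgs10 and Rgs19, lower in skin, that is for 4 of 8 members, against 26.6% of all tested genes (10.1% higher and 16.5% lower). Without SDLN 1, 2 or 3 the fit called 39, 33 and 61 genes higher and 9, 10 and 15 lower, without skin 1 it called 582 higher and without skin 3 it called 822 lower. The median log2 fold change was 0.25 over the 8 members and 0.05 over all tested genes. In these bulk samples fewer cells that carry a transcript and less of it per cell cannot be told apart.

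**Figure D1:**
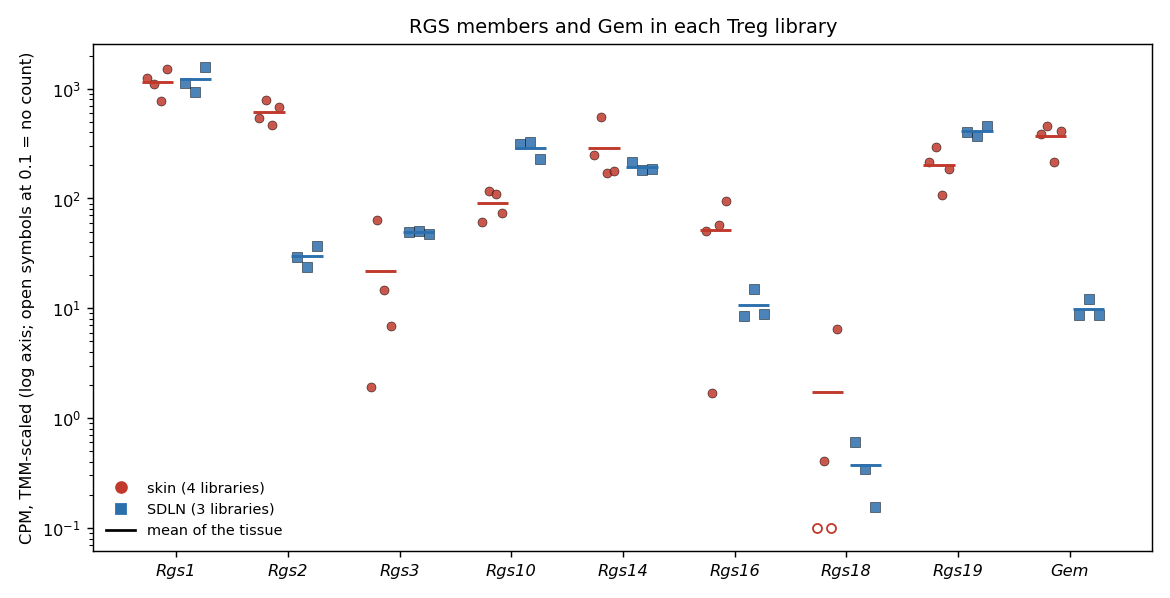
CPM on TMM-scaled library sizes (log axis) of the 9 members in each skin (red circles) and SDLN (blue squares) library, with bars at the tissue means and open symbols where there was no count. Rgs2 and Gem lie apart in the tissues with skin above, Rgs10 and Rgs19 with skin below, while Rgs1 overlaps and Rgs3, Rgs16 and Rgs18 spread widely in skin.

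Rgs2 is a short RGS protein of the R4 subfamily that acts preferentially on the alpha subunit of Gq (chromosome 1, 143999338 to 144004161, minus strand, mm10). It had 536, 781, 465 and 688 CPM in skin 1 to 4, against 29.5, 23.6 and 36.9 CPM in SDLN 1 to 3. All 4 skin libraries stood far above all 3 SDLN libraries, and the skin values lay within a narrow range. The mean was 617 ± 143 CPM in skin (SD, n = 4) and 30.0 ± 6.67 CPM in SDLN (SD, n = 3), a 20.6-fold difference (log2 fold change 4.36, SE 0.33). Leaving out 1 library at a time gave log2 fold changes of 4.20 to 4.53. The coefficient of variation of Rgs2 over the skin libraries was 0.232, and 8.36% of the 7046 genes averaging 20 CPM or more had a lower one, against a median of 0.572 over those genes. Relative to Rgs1 in the same library, Rgs2 stood at 0.428 to 0.711 in skin and 0.0234 to 0.0262 in SDLN, a ratio that does not depend on scaling between libraries.

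RefSeq promoter sequences (GRCm38.p6, 250 bases before to 50 after the start site of the entry) matched 5 of the 9 members, with 8 entries in all. Those of Rgs2 and Rgs10 are shown because these were the RGS members with the largest difference in each direction among the matched genes. They were searched on both strands for TGACGTCA, the full cyclic AMP response element, for its shorter form CGTCA, which also lies within the full element, and for TGANTCA, the AP-1 site. Capitals mark the matches, which were to CGTCA in Rgs2 (once as CGTCA and once as TGACG on the printed strand). The Rgs2 stretch is chr1:144004100-144004399 and the Rgs10 stretch chr7:128418123-128418422, both on the minus strand and printed 5′ to 3′. The Rgs10 stretch lies inside the annotated span of that gene (128373621 to 128418758), so its start site is not the outermost one.
Rgs2: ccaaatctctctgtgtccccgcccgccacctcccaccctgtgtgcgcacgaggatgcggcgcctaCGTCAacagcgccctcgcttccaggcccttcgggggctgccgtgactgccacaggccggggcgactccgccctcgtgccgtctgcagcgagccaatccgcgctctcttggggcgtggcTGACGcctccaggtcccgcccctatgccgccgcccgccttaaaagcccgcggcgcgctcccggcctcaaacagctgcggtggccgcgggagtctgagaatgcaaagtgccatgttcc
Rgs10: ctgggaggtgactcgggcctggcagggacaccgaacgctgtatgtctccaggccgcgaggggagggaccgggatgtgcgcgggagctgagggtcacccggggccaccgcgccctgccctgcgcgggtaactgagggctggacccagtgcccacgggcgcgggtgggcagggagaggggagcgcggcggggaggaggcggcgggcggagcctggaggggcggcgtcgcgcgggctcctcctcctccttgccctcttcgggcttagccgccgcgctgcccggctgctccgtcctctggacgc
The matches in Rgs2 began 185 and 67 bases before the start site of its entry. CGTCA was in 20.8% of all 32851 promoter entries, TGACGTCA in 1.79% and TGANTCA in 7.81%. Of the 8 entries of members, 1 held CGTCA, that of Rgs2. A match describes the letters and shows no binding, and Gem had no entry.

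Gem (chromosome 4, 11704457 to 11714752, plus strand) had 387, 460.0, 214 and 415 CPM in skin 1 to 4, against 8.68, 12.1 and 8.65 CPM in SDLN 1 to 3. Its lowest skin library, skin 3, was still well above each SDLN library. The mean was 369 ± 107 CPM in skin (SD, n = 4) and 9.80 ± 1.97 CPM in SDLN (SD, n = 3), a 37.6-fold difference (log2 fold change 5.23, SE 0.41), and leaving out 1 library at a time gave 5.10 to 5.43. Rgs2 and Gem had the same order among the skin libraries, highest in skin 2, then skin 4, skin 1 and skin 3. The ratio of Gem to Rgs2 in CPM was 0.461 to 0.721 in skin and 0.234 to 0.512 in SDLN, so these ranges overlapped although each gene on its own did not.

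Rgs16, an R4 protein induced on T cell activation (chromosome 1, 153740349 to 153745468), varied among the skin libraries. It had 50.9, 1.70, 57.1 and 95.9 CPM in skin 1 to 4, against 8.48, 14.9 and 8.96 CPM in SDLN 1 to 3. In 3 skin libraries it stood above all SDLN libraries and in skin 2 below them, where Rgs2 and Gem were at their highest. The log2 fold change was 2.25 (SE 1.12), with 2.64 without skin 2, where Rgs16 was called, 1.73 without skin 4 and 1.34 in limma-voom, where it was not. Rgs16 shares 236 of its 2339 exon bases with an antisense gene of the GENCODE annotation, and the strand setting of the counting is not given in the sources used here.

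Rgs1, an R4 protein that dampens chemokine receptor signals in lymphocytes (chromosome 1, 144242296 to 144249242), had 1254, 1098, 767 and 1522 CPM in skin 1 to 4, against 1128, 943 and 1575 CPM in SDLN 1 to 3. Skin and SDLN values were interleaved, with means of 1160.4 ± 315 CPM in skin (SD, n = 4) and 1215 ± 325 CPM in SDLN (SD, n = 3). The log2 fold change was -0.07 with an SE of 0.30, and it ranged from -0.23 to 0.15 over the alternatives, so its sign was not set. Of the genes averaging 20 CPM or more, 82.7% had a lower coefficient of variation than Rgs1 over the SDLN libraries (0.268) and 12.3% had a lower one over the skin libraries (0.272).

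Rgs3 and Rgs18, the other R4 members, were low or uneven. Rgs3 (chromosome 4, 62559847 to 62704001) had 1.93, 64.3, 14.8 and 6.85 CPM in skin 1 to 4, against 49.2, 51.0 and 47.3 CPM in SDLN 1 to 3. The SDLN libraries differed by little, whereas the skin values ran from far below them to above them in skin 2 (log2 fold change -1.16, SE 1.05, and -2.68 without skin 2). Rgs18, known from platelets and myeloid cells (chromosome 1, 144752683 to 144775435), had 0, 5, 0 and 91 counts in skin 1 to 4, against 9, 5 and 2 counts in SDLN 1 to 3. Nearly all of its skin counts came from skin 4, at 6.49 CPM, with 0 to 0.404 CPM in the other skin libraries and 0.154 to 0.611 CPM in SDLN. Skin 4 also had the highest summed macrophage and dendritic cell markers, at 12081 CPM, while platelet markers summed to 12.4 CPM in skin 4, 3.15 to 11.6 CPM in the other skin libraries and 0.967 to 1.76 CPM in SDLN, with Ppbp, Gp1bb and Gp5 at 0 in all libraries. Markers of CD8 T and NK cells, of B cells and of mast cells were also highest among skin libraries in skin 4, at 91.6, 38.4 and 26.2 CPM. In SDLN they summed to 43.4 to 48.5, 78.6 to 102 and 6.64 to 12.6 CPM. The part of these cells in the Rgs18 counts was not tested.

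Rgs10 and Rgs19 were lower in skin. Rgs10, a small protein of the R12 subfamily (chromosome 7, 128373621 to 128418758), had 60.5, 117, 111 and 74.1 CPM in skin 1 to 4, against 312, 327 and 227 CPM in SDLN 1 to 3. The highest skin value lay below the lowest SDLN value. The ratio of Rgs2 to Rgs10 in a library was 4.20 to 9.28 in skin and 0.0721 to 0.163 in SDLN, so their order was turned round between the tissues. Means were 90.5 ± 27.5 CPM in skin (SD, n = 4) and 289 ± 54.0 CPM in SDLN (SD, n = 3), a 3.19-fold lower level in skin (log2 fold change -1.67, SE 0.32). Its fold change was -1.85 to -1.52 with 1 library left out, but the call was lost without any 1 of SDLN 1, 2 and 3. Rgs19, the protein first named GAIP, of the RZ subfamily (chromosome 2, 181688419 to 181693977), had 217, 294, 107 and 185 CPM in skin 1 to 4, against 401, 374 and 454 CPM in SDLN 1 to 3. These did not overlap either, with a log2 fold change of -1.03 (SE 0.34), and Rgs19 was not called. The skin level was 0.490 of the SDLN level for Rgs19, and 0.477 for Cd3e, 0.536 for Cd3d and 0.631 for Cd4. These T cell genes also lay lower in skin without overlap. Of the same marker list, Ctla4, Ikzf2 and Foxp3 lay higher in skin without overlap, at 5.87, 2.23 and 1.90 of the SDLN level. Cd3g, Il2ra and Cd28 overlapped. The part of T cell content in the levels of Rgs10 and Rgs19 was not tested. Rgs14, an R12 protein that also binds Ras-family GTPases and inactive Gi alpha subunits (chromosome 13, 55369732 to 55384687), had 247, 553, 172 and 177 CPM in skin 1 to 4, against 217, 180.3 and 184 CPM in SDLN 1 to 3. Its tissues overlapped, with skin 2 alone far above the rest (log2 fold change 0.57, SE 0.45, and 0.02 without skin 2).

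**Figure D2:**
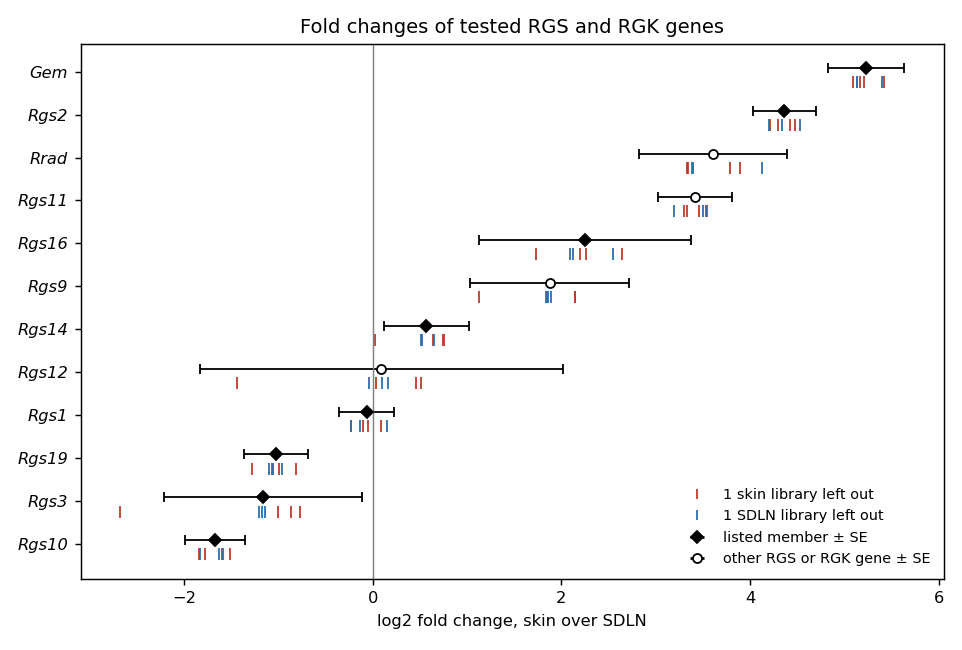
Log2 fold change, skin over SDLN, with its SE for the 8 tested members (filled diamonds) and the 4 other tested RGS and RGK genes (open circles), with ticks below each for the values when 1 skin (red) or 1 SDLN (blue) library was left out. Gem (5.23) and Rgs2 (4.36) head the plot and keep their place with any 1 library left out, whereas Rgs3 moves to -2.68 without skin 2.

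Levels of different genes were compared as CPM per kb of annotated exon. In skin Gem, Rgs2 and Rgs1 led, at 175 ± 51.1, 170.2 ± 39.5 and 167 ± 45.4 CPM per kb (SD, n = 4), which did not differ beyond their spread. Below them came Rgs19 at 90.0 ± 34.8, Rgs14 at 67.8 ± 42.6 and Rgs10 at 52.9 ± 16.1 CPM per kb, again within each other's spread, then Rgs16 at 22.0 ± 16.5, Rgs3 at 2.03 ± 2.66 and Rgs18 at 0.849 ± 1.57 CPM per kb. In SDLN the leading members were Rgs19, Rgs1 and Rgs10, at 184 ± 18.4, 175 ± 46.8 and 169 ± 31.6 CPM per kb (SD, n = 3), also within their spread. Rgs14 followed at 45.7 ± 4.80 CPM per kb, then Rgs2 at 8.27 ± 1.84, and Gem, Rgs16 and Rgs3 could not be ordered, at 4.66 ± 0.937, 4.61 ± 1.53 and 4.55 ± 0.174 CPM per kb, with Rgs18 last at 0.182 ± 0.113 CPM per kb. Rgs1 was thus among the leading 3 in both tissues, joined by Rgs2 and Gem in skin and by Rgs10 and Rgs19 in SDLN. With the longest annotated transcript as the length, the same 3 led in each tissue in another order, and Rgs3 moved from rank 8 to rank 5 in SDLN.

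Summed over the 21 RGS genes of the table, the level was 594, 751, 457 and 688 CPM per kb in skin 1 to 4 and 597, 562 and 632 CPM per kb in SDLN 1 to 3, that is 623 ± 128 in skin (SD, n = 4) and 597 ± 35.2 in SDLN (SD, n = 3), and the SDLN libraries lay inside the range of the skin libraries. The shares within that sum did differ. Rgs2 made up 24.9% to 28.7% of it in skin and 1.16% to 1.61% in SDLN. Rgs1 held 21.0% to 31.8% in skin and 24.2% to 35.9% in SDLN. Rgs10 held 5.95% to 14.1% in skin and 21.0% to 34.1% in SDLN, and Rgs19 held 10.5% to 17.6% in skin and 29.8% to 32.2% in SDLN. By subfamily, the R4 genes made up 58.3 ± 6.26% in skin (SD, n = 4) and 32.0 ± 6.00% in SDLN (SD, n = 3), and the R7 genes 8.05 ± 1.87% in skin and 0.972 ± 0.198% in SDLN. The R12 genes made up 19.5 ± 6.52% in skin and 36.3 ± 7.32% in SDLN, and the RZ genes 14.1 ± 3.38% in skin and 30.7 ± 1.32% in SDLN. These differences were largely those of single genes and not of whole subfamilies: Rgs2 in R4, Rgs11 in R7, Rgs10 in R12 and Rgs19 in RZ. Within R4 the share of Rgs1 overlapped. Within R12 Rgs14 went the other way, at 10.5 ± 4.83% in skin and 7.67 ± 0.862% in SDLN. With the longest transcript as the length the sum was 867 ± 185 CPM per kb in skin and 924 ± 27.3 CPM per kb in SDLN, and the R4 share was 49.9 ± 6.35% in skin and 25.2 ± 5.49% in SDLN.

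**Figure D3:**
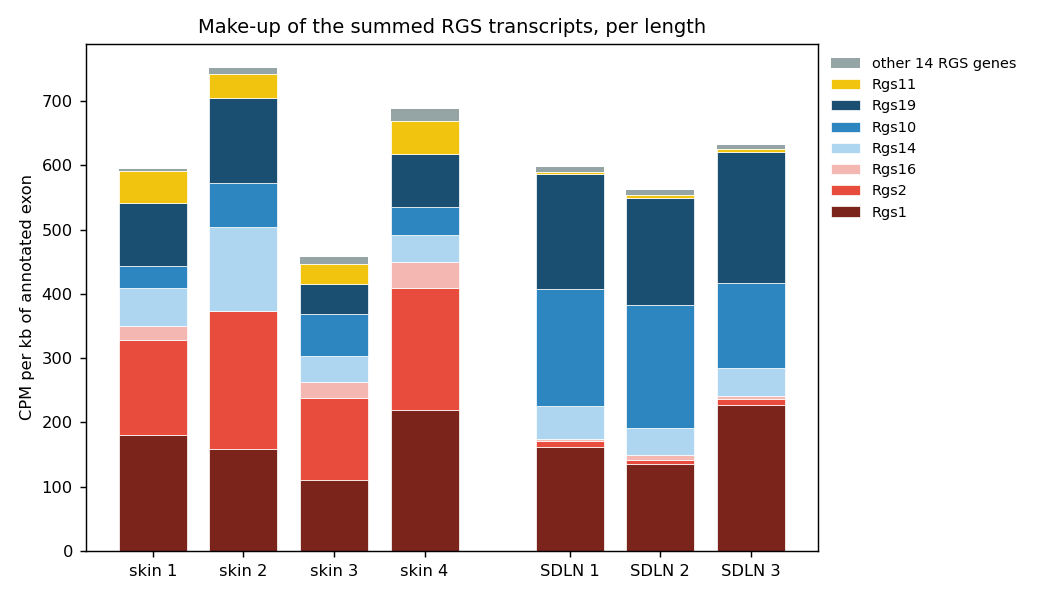
CPM per kb of annotated exon of the RGS genes, stacked, in each skin and SDLN library. The stacks are 457 to 751 CPM per kb high in skin and 562 to 632 in SDLN, with Rgs2 and Rgs11 visible in skin and Rgs10 and Rgs19 taking more of the SDLN stacks.

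The table held 13 other RGS genes, of which 3 were tested, and 1 of the 3 rose in skin (7.24% of all tested genes were called). Rgs11, of the R7 subfamily, whose members are best known from neurons and work as dimers with the G protein subunit Gnb5, had 213, 159.6, 129.9 and 217 CPM in skin 1 to 4, against 11.6, 19.1 and 19.8 CPM in SDLN 1 to 3. All skin libraries were above all SDLN libraries, with means of 180.0 ± 42.5 CPM in skin (SD, n = 4) and 16.9 ± 4.57 CPM in SDLN (SD, n = 3), and the rise was 10.7-fold (log2 fold change 3.42, SE 0.40, edgeR adjusted p = 0.00563, and 6.90e-17 to 0.102 over all alternatives). Leaving out SDLN 2 ended the call of Rgs11 (adjusted p = 0.0519). Rgs11 shares 138 of its 4206 exon bases with Arhgdig on the opposite strand, which had 2 counts in all in skin and 2 in SDLN. Gnb5, named after its values were seen, had 0, 153, 58 and 0 counts in skin 1 to 4, against 151, 121 and 161 counts in SDLN 1 to 3 (edgeR adjusted p = 0.844). In skin 1 and skin 4, the libraries with the most Rgs11, it was thus not detected at this depth. These libraries had 9690 and 11103 genes with a count, against 13408 to 13845 in SDLN. The part of this in the missing Gnb5 counts was not tested.

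Rgs9, another R7 gene, had 16.1, 14.6, 45.7 and 91.4 CPM in skin 1 to 4, against 11.1, 11.8 and 11.3 CPM in SDLN 1 to 3. Skin was higher in 4 of 4 libraries but uneven, and Rgs9 did not pass (log2 fold change 1.88, SE 0.84, edgeR adjusted p = 0.292). Rgs12, a large R12 protein, had 0, 1, 171 and 72 counts in skin 1 to 4, against 73, 58 and 69 counts in SDLN 1 to 3, and did not pass either (adjusted p = 0.992 in edgeR). It shares 467 of its exon bases with an antisense gene of the annotation. The remaining 10 RGS genes were at or near 0. Rgs6, Rgs7, Rgs17, Rgs21 and Rgs22 had no count in any library. Rgs4 had 2 counts in all in skin and 0 in SDLN, Rgs5, a marker of pericytes, 4 in skin and 3 in SDLN, Rgs8 0 in skin and 10 in SDLN, Rgs13 0 in skin and 2 in SDLN, and Rgs20 0 in skin and 3 in SDLN.

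Among the other 3 RGK genes Rrad, also called Rad, was the tested one and rose in skin beside Gem. Rrad had 42.2, 105.2, 26.0 and 105.0 CPM in skin 1 to 4, against 4.002, 3.87 and 9.19 CPM in SDLN 1 to 3. The tissues did not overlap, and skin 3 was the lowest skin library as it was for Gem (12.2-fold, log2 fold change 3.61, SE 0.78, edgeR adjusted p = 0.0380, and 1.03e-05 to 0.356 over all alternatives). The call was lost without any 1 SDLN library (adjusted p = 0.165 to 0.176), without skin 4 (adjusted p = 0.0696), with limma-voom (adjusted p = 0.161) and without the low-count filter (adjusted p = 0.0788). Rem2 had 0, 278, 74 and 0 counts in skin 1 to 4, against 7, 3 and 7 counts in SDLN 1 to 3, and was not tested, and Rem1 had no count. Rrad shares 141 of its 1577 exon bases with an antisense gene of the annotation. Skeletal muscle markers, in view of the known expression of RGK genes in muscle, summed to 29.0 CPM in skin 3 and at most 3.56 CPM in the other skin libraries, against at most 0.154 CPM in SDLN. In skin 3 Acta1 alone gave 28.5 CPM of this, with 1 count of Ckm, 5 of Des and 0 of Myh4.

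Among partners and effectors of Gem, 11 of 13 genes were tested and 1 rose (9.09% called, near the 7.24% of all tested genes). Rock2, a protein kinase of the cytoskeleton, had 180.1, 144, 124 and 192 CPM in skin 1 to 4, against 65.4, 71.3 and 57.8 CPM in SDLN 1 to 3 (log2 fold change 1.30, SE 0.30, edgeR adjusted p = 0.0390, and 3.07e-04 to 0.356 over all alternatives). The rise of Rock2 did not pass without any 1 SDLN library (adjusted p = 0.177 to 0.213) or without skin 4 (adjusted p = 0.0745), nor with upper-quartile scaling, with a filter on mean CPM of 5 or with no filter (adjusted p = 0.0517, 0.0568 and 0.124). Its paralog Rock1 averaged 539 ± 129 CPM in skin (SD, n = 4) and 272 ± 19.5 CPM in SDLN (SD, n = 3), without overlap, and did not pass (edgeR adjusted p = 0.0585). Gmip, a protein that binds Gem, averaged 134 ± 80.9 CPM in skin and 131 ± 16.8 CPM in SDLN (edgeR adjusted p = 0.987). Rock1 and Gmip were named after their values were seen.

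The alpha subunits on which RGS proteins act were compared next. Of 16 alpha subunit genes, 10 were tested and 2 rose (20% called, against 7.24% of all tested genes), with a median log2 fold change of 1.01. Gna13 averaged 601 ± 117 CPM in skin (SD, n = 4) and 156 ± 20.8 CPM in SDLN (SD, n = 3; log2 fold change 1.95, edgeR adjusted p = 0.00998, and 1.82e-11 to 0.124 over all alternatives). Gnas, the stimulatory subunit that activates adenylyl cyclase, averaged 458 ± 197 CPM in skin and 132 ± 15.5 CPM in SDLN (log2 fold change 1.798, edgeR adjusted p = 0.0380, 0.0814 without the low-count filter, and 3.29e-04 to 0.304 over all alternatives). Its locus is also transcribed in antisense, which the counting may not separate. Neither rise passed without any 1 SDLN library (adjusted p = 0.0710 to 0.0938 for Gna13 and 0.165 to 0.176 for Gnas), and Gnas did not pass without skin 2 or skin 4 (adjusted p = 0.0533 and 0.0731). Gnaq, the preferred target of Rgs2, averaged 173 ± 78.6 CPM in skin and 69.3 ± 3.49 CPM in SDLN, and Gnai2, the main inhibitory subunit of lymphocytes, 510.3 ± 381 CPM in skin and 132 ± 12.1 CPM in SDLN. For both the tissues did not overlap and neither passed (edgeR adjusted p = 0.101 for Gnaq and 0.119 for Gnai2, both named after their values were seen).

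Of 17 beta and gamma subunits 10 were tested and 1 rose (10% called, near the 7.24% of all tested genes). This was Gng2, at 226 ± 73.8 CPM in skin (SD, n = 4) and 65.3 ± 10.04 CPM in SDLN (SD, n = 3). Its log2 fold change was 1.79 (edgeR adjusted p = 0.0380, 0.0696 without the low-count filter, and 9.86e-05 to 0.293 over all alternatives). Of 20 effectors 13 were tested and 1 rose (7.69% called, near the 7.24% of all tested genes). This was Prex1, a Rac exchange factor that beta-gamma subunits activate, at 291 ± 91.2 CPM in skin and 62.1 ± 8.25 CPM in SDLN. Its log2 fold change was 2.23 (edgeR adjusted p = 0.0117, and 7.10e-09 to 0.127 over all alternatives). Both calls were lost without any 1 SDLN library (adjusted p = 0.165 to 0.176 for Gng2 and 0.0934 to 0.0985 for Prex1), and that of Gng2 without skin 4 (adjusted p = 0.0509). Receptor kinases and arrestins, which end receptor signalling on the receptor side, had 6 of 8 genes tested and 0 called by edgeR, DESeq2 or limma-voom, with 0 at an unadjusted p under 0.05. Their most abundant member, Adrbk1, averaged 163 ± 105 CPM in skin and 154 ± 9.70 CPM in SDLN (edgeR adjusted p = 0.983). Of 7 other G protein modulators 6 were tested and 0 called by edgeR, with 1 at an unadjusted p under 0.05, 1 called by DESeq2 and 0 by limma-voom. Ric8, a chaperone of alpha subunits and their most abundant gene, averaged 139 ± 89.8 CPM in skin and 165 ± 13.95 CPM in SDLN (edgeR adjusted p = 0.865).

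Upstream of these proteins, 32 of 40 chemoattractant and lipid receptors of leukocytes were tested, and 9 rose and 4 fell in skin (40.6% called, against 7.24%). Cxcr4, the receptor for Cxcl12, averaged 172 ± 71.6 CPM in skin (SD, n = 4) and 4.83 ± 0.234 CPM in SDLN (SD, n = 3; edgeR adjusted p = 0.00377, and 0.0518 in limma-voom). Ccr1 averaged 88.5 ± 28.9 CPM in skin and 3.06 ± 0.966 CPM in SDLN (edgeR adjusted p = 0.00674), and Ccr3 141 ± 56.0 CPM in skin and 13.7 ± 1.22 CPM in SDLN (edgeR adjusted p = 0.00998). The receptors for exit from and entry into lymph nodes fell in skin: S1pr1 averaged 67.4 ± 34.8 CPM in skin and 1018 ± 56.9 CPM in SDLN (edgeR adjusted p = 0.00377), and Ccr7 84.5 ± 48.9 CPM in skin and 929 ± 82.7 CPM in SDLN (edgeR adjusted p = 0.0117). Gpr18 had 2 counts in all in skin and 9676 in SDLN (edgeR adjusted p = 0.00104). Calls ended without SDLN 1 or 2 for Ccr1 (adjusted p = 0.0693 and 0.0668), and without any 1 SDLN library for Ccr3 (adjusted p = 0.0691 to 0.0902) and Ccr7 (adjusted p = 0.0665 to 0.0693). Without SDLN 1, 2 or 3 the receptors that rose numbered 1, 1 and 3 and those that fell 2 each time. Over the 9 lists of G-protein genes together, 92 were tested, 16 rose and 4 fell (21.7% called, against 7.24% of all tested genes). Their median log2 fold change was 0.59, and 13 of the 20 calls were those of the receptors. Without SDLN 1, 2 or 3, 2, 1 and 4 genes of these lists rose and 2 fell each time.

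**Figure D4:**
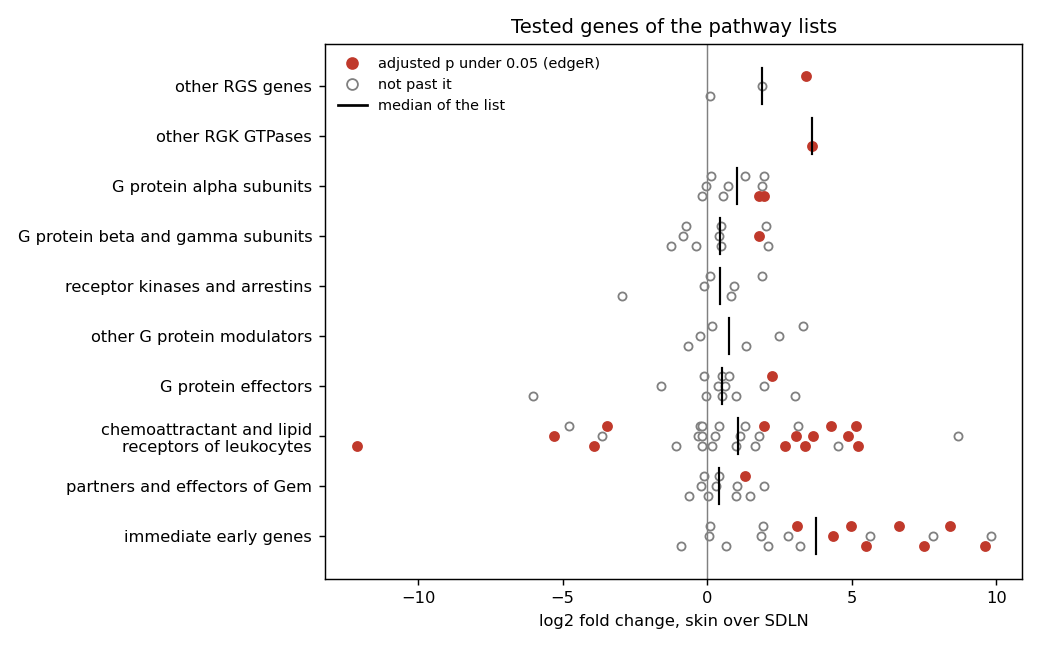
Log2 fold change, skin over SDLN, of each tested gene of the lists, filled where the edgeR adjusted p was under 0.05, with a bar at the median of each list. Calls lie mostly among the receptors (13 of 32) and the immediate early genes (8 of 20), and the leftmost point, Gpr18, had 2 counts in skin, so its position depends on the prior count.

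Immediate early genes, which are switched on within minutes of receptor signals and also during tissue dissociation, moved in part with Rgs2 and Gem. Of 21 genes 20 were tested, 8 rose and 12 did not pass (40% called, against 7.24% of all tested genes). Their median log2 fold change was 3.77, against 0.05 over all tested genes. Fos (log2 fold change 8.41), Fosl2 (6.62) and Nr4a1 (4.35) had the smallest adjusted p (each 0.00127 in edgeR), and in limma-voom Fos reached an adjusted p of 0.0549. Leaving out SDLN 1, 2 or 3 lowered the number that rose to 5, 4 and 6. Genes of the Egr family did not pass: Egr1 had 48.7, 5.66, 32.2 and 80.4 CPM in skin 1 to 4, against 41.4, 36.04 and 42.6 CPM in SDLN 1 to 3, and was thus lowest in skin 2, where Rgs2 and Gem were highest (edgeR adjusted p = 0.987). Egr2 and Egr3 had log2 fold changes of -0.91 and 0.10 (edgeR adjusted p = 0.691 and 0.977), and these 3 genes were named after their values were seen. The summed level of the list, in skin mostly from Nr4a1, Fos, Zfp36 and Dusp1, was 7770.3, 12180.2, 4948 and 8217 CPM in skin 1 to 4, against 991, 1037 and 1172 CPM in SDLN 1 to 3. Skin libraries had the same order for this sum as for Rgs2 and Gem, with skin 2 highest and skin 3 lowest. Skin 3 was also the lowest for the summed Treg and T cell markers and the summed macrophage and dendritic cell markers. The latter sum was mostly Cd74, H2-Aa, H2-Ab1 and H2-Eb1. Csf1r, Cd68, Mrc1, Cd209a and Cd14 were instead lower in skin 2 than in skin 3, with Csf1r at 0 and 27.4 CPM. Lyz2 went the other way, at 175 CPM in skin 2 and 63.5 CPM in skin 3. The part of the immediate early response, or of other cells, in the levels of the members was not tested. Without skin 3, the library with fibroblast and keratinocyte markers, the log2 fold change was 4.48 for Rgs2 and 5.43 for Gem, and without skin 4, the library with the most macrophage and dendritic cell markers, 4.30 for Rgs2 and 5.17 for Gem.

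**Figure D5:**
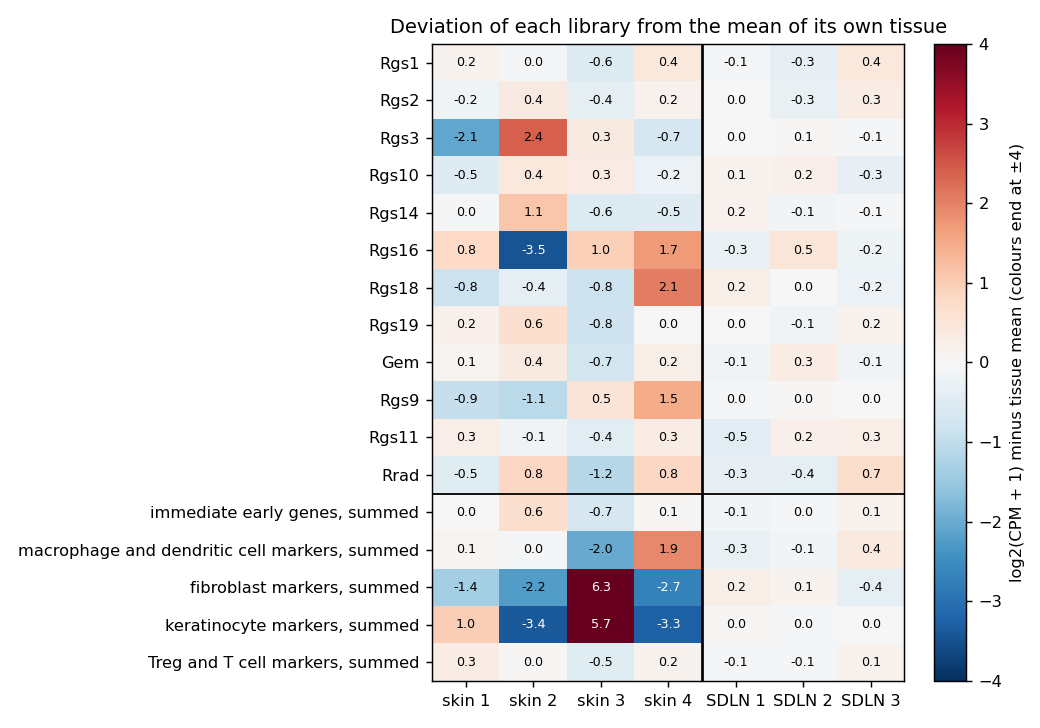
Log2(CPM + 1) of each library minus the mean of its own tissue, for the members, for Rgs9, Rgs11 and Rrad and for summed marker lists, in skin and SDLN libraries. Gem (-0.72) and Rgs2 (-0.38) are lowest in skin 3, Rgs16 lies at -3.46 in skin 2, and the fibroblast and keratinocyte sums stand out in skin 3.

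Genes whose profile over the 7 libraries was most like that of a member were taken from the 7045 other genes averaging 20 CPM or more, by the root mean square difference of log2 CPM after each gene's mean was taken off. For Rgs2 these were Rora (0.30), a nuclear receptor, and Ahnak (0.31), a large scaffold protein. Gem was nearest to Rap2a (0.33), another small GTPase of the Ras family, and to Tnfaip3 (0.34), the ubiquitin-editing protein A20. Rgs10 lay nearest to Fto (0.19), an RNA demethylase, and Cd38 (0.19), an ectoenzyme, and Rgs19 to Gimap8 (0.17), a lymphocyte GTPase, and Ccm2 (0.19). For Rgs1 they were AI662270 and Plgrkt (0.12 each), for Rgs14 Dgkd (0.15), a diacylglycerol kinase, and Mphosph6 (0.17), for Rgs3 Tmc6 (0.30) and Usp28 (0.42), and for Rgs16 Fut8 (0.57) and Lrrc59 (0.60). Rgs16, uneven in skin, had the farthest nearest gene of the 8 members. A prior count of 0.5 in place of 2 named the same 16 genes.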

How the data were processed

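Messenger RNA of sorted Tregs was sequenced in 4 skin and 3 SDLN libraries, with cDNA made by the SMARTer Ultra Low Input kit per the labels' protocols. The authors deposited unnormalized counts of reads for each gene symbol, and the submitters' processing notes name CASAVA 1.8.2, SAMtools 0.1.19.0, Bowtie2 2.1.0.0, HTSeq 0.6.1, TopHat2 2.0.12 and build mm10. The annotation and strand setting of the counting are not given in the sources used. Summary lines (5 in all) were left out, among them multiply aligned reads (61.2% to 70.4% of a library's total) and reads outside genes (10.0% to 17.1%). Columns were matched to libraries by title.

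Genes were kept by filterByExpr (minimum count 10) of edgeR 4.0.16 in R 4.3.3, scaled by TMM and tested, skin against SDLN, by the robust quasi-likelihood test with tissue as the sole term, two-sided, with Benjamini-Hochberg adjustment over 11376 genes and a threshold of 0.05. SEs come from the quasi-likelihood F statistic. Positions and exon lengths are those of GENCODE M21 (mm10). The members, lists and tests were chosen with earlier results of these data known. Named genes are the members, all other RGS and RGK genes, up to 3 called genes per direction of each further list by adjusted p or else its most abundant gene, and the 2 genes nearest to each member. Tried as well were DESeq2 1.42.0 and limma-voom (limma 3.58.1), scaling by RLE, by the upper quartile or not at all, a filter on mean CPM of 5 or none, non-robust estimation, a block for the replicate number, omission of single libraries and an adjusted p under 0.01.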

Additional observations from a re-analysis of the deposited data

Results flagged for a closer look

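In the skin libraries, 2 of the 29 genes examined had 1 library far from the other skin libraries by Dixon's criterion, which chance meets in about 1 of 20 groups. Rgs18 stood at 6.49 CPM in skin 4, with 0 to 0.404 CPM in the other skin libraries. S1pr1 stood at 119 CPM in skin 1, with 45.2 to 54.8 CPM in the other skin libraries.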

How the results depend on the processing

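Of 128 fold changes of the 8 tested members under the alternatives, 128 stayed within 1 SD between libraries of the value given. This tally could hardly fail and shows no stability, as the alternatives refit most of the same libraries and each gene's own spread was its yardstick. Log2 fold changes ran from 4.20 to 4.53 for Rgs2 and from 5.10 to 5.43 for Gem. They ran from -2.68 to -0.776 for Rgs3 and from 0.018 to 0.756 for Rgs14. No called member changed sign (Rgs1, not called, did). Counts of calls moved widely. Genes higher in skin numbered 373, with 923 in DESeq2, 188 without the low-count filter, 72 at an adjusted p under 0.01 and 33 to 582 with 1 library left out; genes lower numbered 451, with 729 in limma-voom, 99 with a filter on mean CPM of 5, 70 without the filter, 16 at an adjusted p under 0.01 and 9 to 822 with 1 library left out. Members called higher numbered 2 to 3 and those called lower 0 to 1 with 1 library left out, and 0 were called lower at an adjusted p under 0.01. Genes of the G-protein lists that rose numbered 16, with 25 in DESeq2, 5 at an adjusted p under 0.01 and 1 to 22 with 1 library left out; those that fell numbered 4, with 7 in limma-voom, 2 at an adjusted p under 0.01 and 2 to 8 with 1 library left out. The causes were not tested. Libraries with the same number did not deviate together (correlations 0.0672, -0.00176 and -0.0401, and -0.0793 to 0.102 for libraries with different numbers). As skin libraries differed widely among themselves, these values cannot show whether same-numbered libraries shared an animal or a batch. The labels do not say. With it as a block on 6 libraries, 32 genes were higher and 10 lower, 0 members were called lower, 0 list genes were called higher, and the log2 fold change of Rgs16 was 1.196, against 2.25 without the block.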
